A study of Mus musculus with 30 samples.

Results

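Olfactory receptor genes were studied in the sorted stroma of the newborn mouse thymus. A gene was taken as a member if its symbol began with Olfr and a number and if its mean over the 6 libraries of at least 1 sorted population was 0.5 FPKM or more (FPKM, the fragments of a gene divided by its length and by the size of the library). This gave 57 members among the 285 olfactory receptor rows of a table of 18847 genes. The population means chose the members, so levels and differences between populations are given as a description, with no test. Just inside the threshold were Olfr545 at 0.502 in CD140a and Olfr329-ps at 0.503 in mTEC, and just outside it were Olfr1260 at 0.487 in CD140a and Olfr9 at 0.485 in Endo.

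The mice were of strain B6.SJL and of mixed sex. They received aflibercept (VEGF-Trap, here Trap), a soluble receptor fusion that captures VEGF-A, or hFC antibodies as the control, on day 1 of life, and the thymus was taken at an age of 3 days. From cells negative for CD3, CD4, CD8, CD45 and TER119, 5 populations were sorted. CD140a and CD146 were mesenchyme that lacked EpCAM and CD31 and carried CD140a or CD146, cTEC was EpCAM-positive and Ly51-positive cortical epithelium, mTEC was EpCAM-positive medullary epithelium with low or no Ly51, and Endo was endothelium that carried CD31. The 30 libraries were 2 from controls and 4 from Trap mice in each population. The labels number the replicates without naming animals or pools, so a p-value here reflects the spread among libraries alone, which may be technical.

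Olfactory receptors are G protein-coupled receptors, and each olfactory neuron of the nose uses very few of a large gene family. The receptor couples there to the G protein encoded by Gnal, to adenylyl cyclase 3 and to a cyclic nucleotide-gated channel. Some receptors also serve outside the nose: Olfr78 and Olfr558 are known from vascular smooth muscle and renin cells and respond to short-chain fatty acids. Medullary epithelial cells of the thymus transcribe genes of many other tissues, olfactory receptors among them, and display the products to developing T cells.

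The sorted populations carried their defining markers. Fibroblast markers summed to 4692.9 to 6650.1 FPKM in CD140a, mural markers to 5078.6 to 6581.5 in CD146, and endothelial markers to 1358.3 to 1544.1 in Endo. The cTEC markers summed to 2483.1 to 3271.2 in cTEC and 645.1 to 895.8 in mTEC, and the mTEC markers to 1510.0 to 3130.5 in mTEC and 562.6 to 1178.0 in cTEC. The mTEC libraries also held 508.4 to 760.2 FPKM of the mural markers, most of it Rgs5, which averaged 538.7 there. Myh11 averaged 38.4 FPKM in mTEC, Acta2 25.4 and each other mural marker at most 3.75. The cTEC libraries held 53.2 to 145.2 FPKM of 10 thymocyte markers, and the mTEC libraries 219.6 to 369.0 FPKM of 8 macrophage and dendritic cell markers, most of it Lyz2. Trap library 2 of Endo stood apart, with 253.2 FPKM of the 8 mTEC markers against 34.7 to 105.0 in the other 5 and with the fewest genes at 1 FPKM of all 30 libraries, 10298. Most of these Endo sums came from 2 genes: Ccl21a reached 202.4 FPKM in Endo, Tnfrsf11a 36.9 and each other mTEC marker at most 7.43. Trap library 4 of Endo was also low in genes at 1 FPKM, with 10572. Libraries of 1 population correlated at 0.881 to 0.980 and libraries of different populations at 0.603 to 0.868 (Pearson, log2(FPKM + 1), all genes tested).

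How many fragments stand behind a value could be estimated only in part. Low values were examined in 1098 genes with 1 annotated transcript of 300 to 1500 bases. Of these values, 43.6% to 55.9% in a library lay on whole multiples of 1 step. The tolerance, slightly wider than rounding, covers 17.9% to 25.5%. The step of each library was the one, among many tried, with the widest gap between these shares, which inflates the gap. If the steps hold, 1 fragment on a transcript of 1 kilobase stands at 0.0465 to 0.0741 FPKM. A member at 0.5 FPKM then rested on about 8.7 fragments per kilobase. Values near the threshold are therefore coarse, and a 0 says only that the gene is listed at 0. In bulk samples, fewer cells of a type and less RNA per cell cannot be told apart.

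The populations differed in the number of members they held. At the threshold stood 30 members in Endo, 29 in CD146, 27 in mTEC, 19 in CD140a and 18 in cTEC, with 33 members there in a single population and 10 in all 5. The members at the threshold in all 5 populations were Olfr1373, Olfr1396, Olfr221, Olfr267, Olfr457, Olfr458, Olfr543, Olfr56, Olfr90 and Olfr920. By their highest mean, 17 members belonged to CD146, 16 to Endo, 16 to mTEC, 5 to cTEC and 3 to CD140a. Most were low: 39 members had a mean of 1 FPKM or more in some population, 7 reached 5 FPKM and 5 reached 10 FPKM. Of the 57 members, 44 kept a mean of 0.5 FPKM when the library with their highest value was left out. The clearest exception was Olfr1444, listed at 11.2 FPKM in Trap library 2 of Endo and at 0 to 0.86 in the other 5 Endo libraries.

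**Figure D1:**
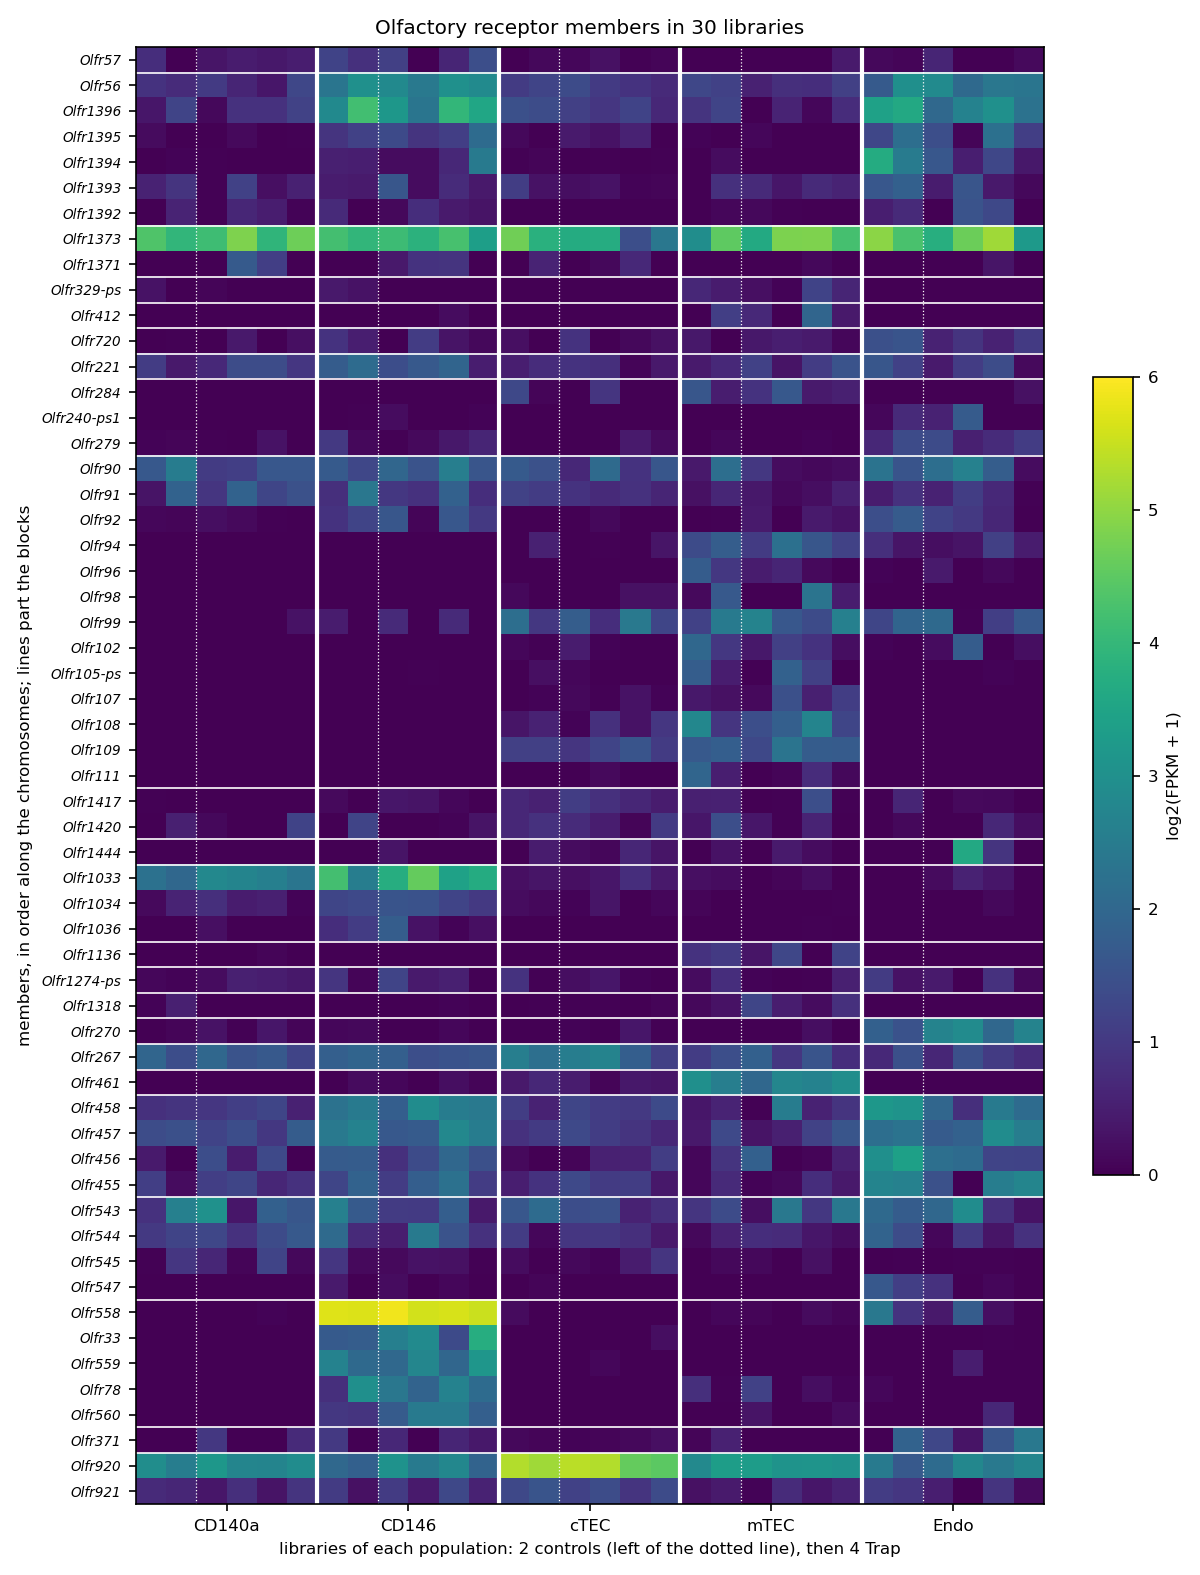
Level of the 57 members (rows, grouped in chromosomal blocks by white lines) in 30 libraries (columns), as log2(FPKM + 1) by colour. The 5 members of the block around Olfr558 are bright in CD146, the block with Olfr108 and Olfr109 is brightest in mTEC, and Olfr1373 is bright in all 5 populations.

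Olfr558 was the most abundant member, and it marked CD146 mesenchyme. Its level in CD146 was 51.3 and 50.3 FPKM in the controls and 57.8, 47.2, 48.5 and 44.7 in the Trap libraries, a mean of 49.98 ± 4.52 (SD, n = 6). Its spread there was the smallest of all members in their leading population, with a coefficient of variation of 0.0904. In CD140a, cTEC and mTEC its means were at or under 0.05 FPKM. Endo held 4.27 and 0.83 in the controls and 0.33, 2.36, 0.17 and 0 in the Trap libraries. The start of the gene, taken from RefSeq (GRCm38.p6), is shown because this member carries the highest level. The window chr7:102702073-102702372 on the plus strand runs from 250 bases before to 50 bases after the RefSeq start, which lies 108 bases from the 5′ end in GENCODE.
Olfr558: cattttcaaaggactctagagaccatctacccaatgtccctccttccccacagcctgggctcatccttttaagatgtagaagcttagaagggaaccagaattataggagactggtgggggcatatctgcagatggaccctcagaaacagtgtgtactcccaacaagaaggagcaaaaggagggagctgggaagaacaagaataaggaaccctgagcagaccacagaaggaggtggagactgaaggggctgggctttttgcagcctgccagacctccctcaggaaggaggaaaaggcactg
It holds none of the motifs searched on both strands. These were the TATA box TATAAA, the homeodomain core TAATTA, a palindrome described with the mTEC members, and the CArG box of smooth muscle genes.

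Olfr558 shares its place with 4 other members of the same pattern. Olfr558, Olfr33, Olfr559, Olfr78 and Olfr560 lie side by side at chr7:102702215-102759471 (GRCm38), they are the 5 olfactory receptor genes annotated in that block, and all 5 had their highest mean in CD146. Olfr33 stood at 2.24 and 2.43 FPKM in the CD146 controls and at 5.06, 6.27, 1.53 and 12.4 in the Trap libraries. Olfr559 stood at 5.33 and 3.14 in the controls and at 3.10, 5.78, 2.92 and 7.93 with Trap. In both genes the groups overlapped. Olfr78, the receptor also known as OR51E2 in humans, stood at 0.76 and 6.97 in the controls and at 4.23, 2.74, 5.35 and 3.30 with Trap, and Olfr560 at 0.95 and 0.86 against 2.31, 4.55, 4.52 and 2.53. The 2 annotated genes Olfr78 and Olfr560 share 926 exon bases on the same strand, so their values cannot be fully parted. Outside CD146 the means of Olfr33, Olfr559, Olfr78 and Olfr560 were at most 0.37 FPKM, that of Olfr78 in mTEC.

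Other members with their highest mean in CD146 had wider patterns. Olfr1033, on chromosome 2, was shared by both mesenchymal populations, with 17.4 and 4.79 FPKM in the CD146 controls, 12.3, 22.8, 9.80 and 11.9 with Trap, and a mean of 4.53 ± 1.14 (SD, n = 6) in CD140a. Its means in cTEC, mTEC and Endo were 0.33, 0.097 and 0.15 FPKM. The neighbours Olfr1034 and Olfr1036 of the same block were also highest in CD146, at 1.00 to 1.96 and 0.04 to 2.39 FPKM. Olfr1396 had a mean of 10.2 in CD146 and 6.72 in Endo, and Olfr56, whose annotated gene body spans several interferon-induced GTPase genes, 5.85 and 4.48. Olfr56 shares 111 exon bases with Ifi47 on the same strand. The remaining members led by CD146 were Olfr57, Olfr91, Olfr92, Olfr221, Olfr457, Olfr544 and Olfr1274-ps.

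By Pearson correlation of log2(FPKM + 1) over the 30 libraries, the genes outside the family closest to Olfr558 were Myocd, the myocardin coactivator of smooth muscle genes, at 0.968, Inpp4b at 0.968, Rcan2 at 0.967, Slc38a11 at 0.966 and Sema5b at 0.965. Those closest to Olfr1033 were Ednra, the endothelin A receptor, at 0.960, Fxyd1 at 0.959, Atp10a at 0.958, B3galt1 at 0.952 and Cacna1c, a calcium channel subunit, at 0.952. The 30 points share populations, so these correlations describe which populations hold each gene. Myh11 and Acta2, contractile genes of smooth muscle, averaged 448.5 and 752.9 FPKM in CD146.

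Olfr920 was the leading member in cTEC. It stood at 38.4 and 34.2 FPKM in the controls and at 40.6, 38.7, 23.0 and 21.5 in the Trap libraries, a mean of 32.7 ± 8.38 (SD, n = 6), while its means elsewhere ran from 4.31 in Endo to 7.71 in mTEC. No cTEC library overlapped a library of another population. Trap libraries 3 and 4 of cTEC, the low pair, held 134.8 and 145.2 FPKM of the thymocyte markers against 53.2 to 91.1 in the other 4 cTEC libraries; the part of these cells in the result was not tested. The genes closest to Olfr920 outside the family were Kcnk2 at 0.942, Ctsl, the cathepsin of cortical epithelium, at 0.941, Myo16 at 0.937, Grap2 at 0.935 and Ndrg3 at 0.932. Olfr921, its neighbour on chromosome 9, reached 0.86 to 1.96 FPKM in cTEC. Olfr267 had a mean of 3.73 in cTEC and 1.07 to 2.23 elsewhere, and Olfr1417 and Olfr1420, a pair on chromosome 19, had 0.38 to 1.12 and 0.05 to 1.03 in the cTEC libraries.

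Olfr1373 was present everywhere and variable. Its population means were 21.4 FPKM in Endo, 19.4 in CD140a, 18.7 in mTEC, 14.8 in CD146 and 11.3 in cTEC, and it ranked first or second among the members in all 5. Within populations it ran from 8.30 to 34.6 in Endo, from 14.3 to 27.4 in CD140a, from 6.74 to 27.7 in mTEC, from 9.31 to 18.1 in CD146 and from 1.73 to 24.9 in cTEC. All 5 ranges overlapped. Its closest gene outside the family over the 30 libraries was Olfm1, at a Pearson correlation of 0.595. Its value may hold reads of copies: the coding sequences of Olfr1373 and Olfr1371 are each 936 bases in 1 exon, differ at 29 bases and are 96.9% identical, and Olfr1381 differs from Olfr1373 at 13 bases and is 98.6% identical. The longest stretch that Olfr1373 and Olfr1371 share, bases 451 to 687 of both coding sequences (GENCODE M21, 237 bases), is shown because a read within it cannot be assigned to either gene.
Olfr1373 and Olfr1371: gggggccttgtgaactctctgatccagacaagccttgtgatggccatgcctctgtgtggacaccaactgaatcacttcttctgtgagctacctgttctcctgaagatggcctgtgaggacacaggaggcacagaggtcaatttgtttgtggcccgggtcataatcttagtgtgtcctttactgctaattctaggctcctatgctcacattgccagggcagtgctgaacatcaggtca
Olfr1371 itself was listed at 2.25 and 1.16 FPKM in Trap libraries 2 and 3 of CD140a and at 0 in the other 4.

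**Figure D2:**
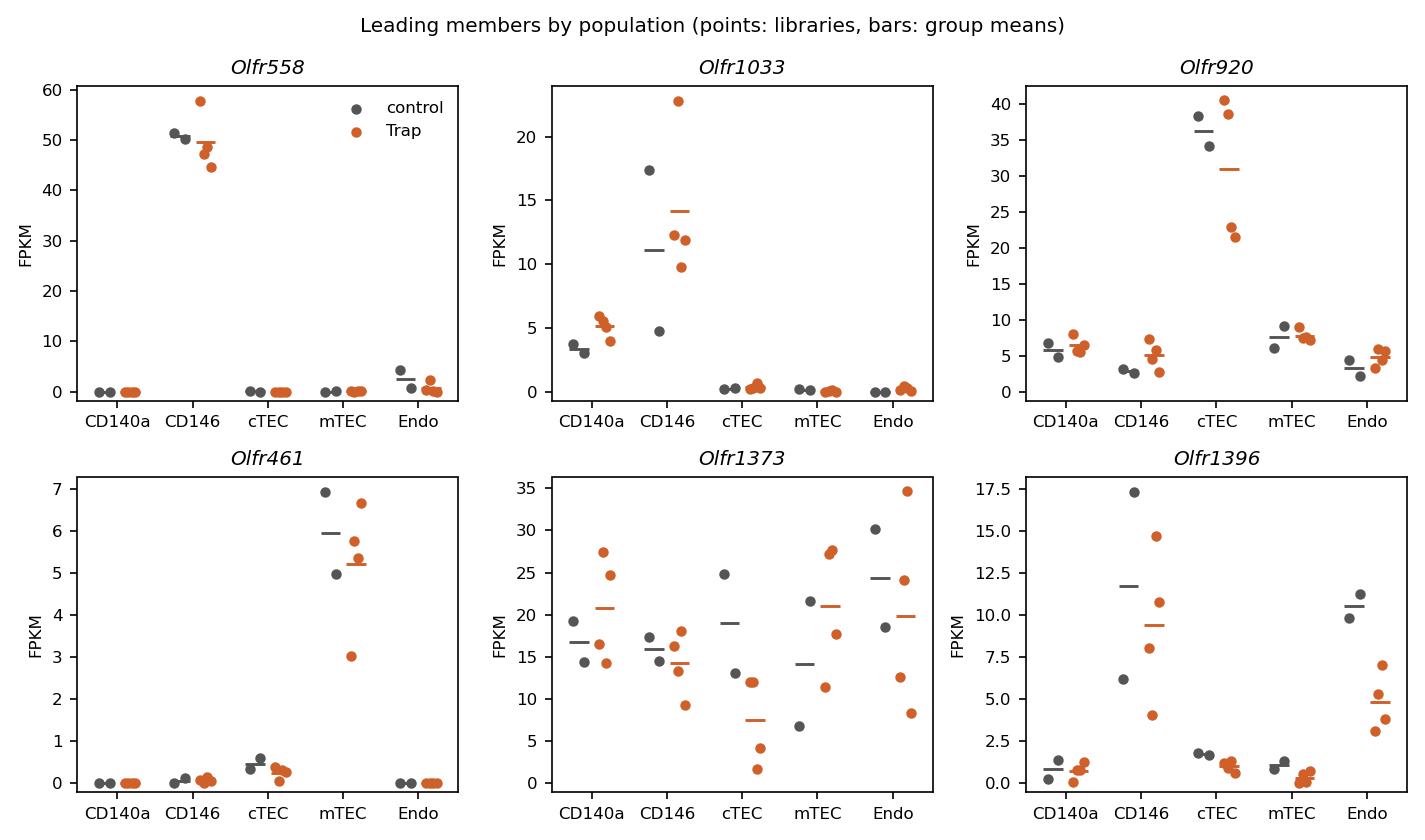
FPKM of 6 leading members in each library (points) of the 5 populations, control in grey and Trap in orange, with group means as bars. Olfr558 lies at 44.7 to 57.8 in CD146 and Olfr920 at 21.5 to 40.6 in cTEC, while Olfr1373 overlaps among all 5 populations.

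Medullary epithelium held many olfactory receptor genes, mostly at low levels. Between 104 and 170 of the 285 rows were above 0 in an mTEC library, against 49 to 102 in the libraries of the other populations, and 124 rows had their highest mean in mTEC. Over all genes the mTEC libraries also listed more, with 12815 to 13661 genes at 1 FPKM or more against 10298 to 11694 elsewhere. The rows at or above 0.5 FPKM in a library numbered 24 to 39 in mTEC and 17 to 37 elsewhere. The 16 members highest in mTEC had a median coefficient of variation of 0.918 over the 6 libraries, against 1.08 for the 3 highest in CD140a, 0.749 for the 16 highest in Endo, 0.553 for the 17 highest in CD146 and 0.412 for the 5 highest in cTEC. Of those 16, 13 were at the threshold in mTEC alone. Aire and Fezf2, regulators that let these cells display tissue-restricted genes, averaged 126.1 and 121.1 FPKM in mTEC and at most 1.21 elsewhere. Of the 27 type 2 taste receptor rows, another chemoreceptor family, 19 also reached 0.5 FPKM in mTEC.

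Olfr461 was the steady member of mTEC. It stood at 6.93 and 4.97 FPKM in the controls and at 3.02, 5.77, 5.37 and 6.68 with Trap, and its means elsewhere were at most 0.32. The other members were patchier. Olfr108 stood at 5.84 and 0.90 in the controls and 1.71, 2.5, 5.48 and 1.39 with Trap, and Olfr98 at 0.12 and 2.20 against 0, 0, 3.95 and 0.38. Olfr109 was more even, at 2.19 and 2.49 in the controls and 1.46, 3.93, 2.36 and 2.31 with Trap. Olfr99 ran from 1.24 to 5.39 in mTEC and averaged 2.21 in cTEC and 1.79 in Endo. Olfr412, Olfr1136, Olfr1318, Olfr329-ps and Olfr284 completed the members led by mTEC outside the cluster described next.

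A single cluster beside the class I histocompatibility genes held 10 of the 16 members led by mTEC. It runs over chr17:37083871-37532449 (GRCm38) and holds 21 annotated protein-coding olfactory receptor genes, 20 of them in the table, of which 13 were members. Olfr94, Olfr96, Olfr98, Olfr99, Olfr102, Olfr105-ps, Olfr107, Olfr108, Olfr109 and Olfr111 were highest in mTEC, while Olfr90 was highest in Endo and Olfr91 and Olfr92 in CD146. The cluster lies among Gabbr1, Ubd, H2-M3 and H2-M2. RefSeq start windows of Olfr98 and Olfr108 are shown because their starts lie 87 and 0 bases from the GENCODE 5′ end and because both hold the palindrome TCCC and GGGA with any 2 bases between, a form that EBF transcription factors recognise, here in capitals. Olfr98 is at chr17:37263613-37263912 on the minus strand and Olfr108 at chr17:37445230-37445529 on the plus strand.
Olfr98: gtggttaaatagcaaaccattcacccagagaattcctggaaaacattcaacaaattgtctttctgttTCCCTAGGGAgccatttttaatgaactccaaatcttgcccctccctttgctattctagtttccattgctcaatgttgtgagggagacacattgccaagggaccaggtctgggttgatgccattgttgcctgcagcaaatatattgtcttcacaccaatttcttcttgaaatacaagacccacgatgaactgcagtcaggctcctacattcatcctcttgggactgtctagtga
Olfr108: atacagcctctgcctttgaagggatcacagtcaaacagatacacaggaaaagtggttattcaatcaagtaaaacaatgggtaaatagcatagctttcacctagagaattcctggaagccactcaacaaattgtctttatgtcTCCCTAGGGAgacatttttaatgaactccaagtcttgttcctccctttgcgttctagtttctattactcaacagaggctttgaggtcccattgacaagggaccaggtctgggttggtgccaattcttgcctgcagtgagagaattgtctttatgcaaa
Among 44 members with a RefSeq window, 4 held this palindrome (9.1%), and all 4 were in this cluster: Olfr96, Olfr98, Olfr99 and Olfr108. It was found in 0.5% of 948 olfactory receptor windows and in 0.9% of all 32851 windows of the same length. The windows of Olfr98 and Olfr108 are alike in sequence around the palindrome. The transcripts of Olfr98 and Olfr99 share 139 stretches of 50 bases. The 4 hits need not be separate cases, which limits the comparison of these shares. A match of letters is a description and no evidence of binding. TATAAA was in 31.8% of member windows, 41.0% of olfactory receptor windows and 13.6% of all windows, and TAATTA in 6.8%, 18.6% and 5.3%. The CArG box was in none of the 44 member windows, 1.8% of olfactory receptor windows and 1.6% of all. Only 11 of the 44 windows lay within 500 bases of the GENCODE 5′ end, so most do not show the start that GENCODE gives.

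Of the 57 members, 33 were at the threshold in a single population, and the others were shared. CD146 and Endo had 20 in common, which is 69.0% of those in CD146 and 66.7% of those in Endo, and CD140a and CD146 had 17, or 89.5% and 58.6%. CD140a and Endo had 16, Endo and cTEC had 15 (of 30 and of 18), and cTEC and mTEC had 12, or 66.7% and 44.4%. CD140a and cTEC had 14, as did CD146 and cTEC. The mTEC members had 13 in common with Endo, 11 with CD146 and 11 with CD140a. Each count for a pair includes the 10 members at the threshold in all 5 populations. Olfr458, Olfr457, Olfr456 and Olfr455, the 4 receptor genes of a block at chr6:42459979-42547587, reached the threshold in both CD146 and Endo. Olfr457 and Olfr458 reached it in all 5 populations, and Olfr455 and Olfr456 in 4. Olfr458 stood at 8.04 and 7.41 FPKM in the Endo controls and 2.96, 0.76, 4.49 and 3.30 with Trap, and at 2.49 to 6.60 in CD146. Olfr456 stood at 6.90 and 9.68 in the Endo controls and 3.56, 3.27, 1.33 and 1.32 with Trap, with no overlap between the groups. The block at chr11:48978889-49295891 held 6 annotated genes, Olfr56, Olfr1396, Olfr1395, Olfr1394, Olfr1393 and Olfr1392, all of them members led by CD146 or Endo. Olfr1392 reached the threshold in Endo alone, with a mean of 0.34 FPKM in CD146. Olfr270 had a mean of 4.12 ± 1.86 (SD, n = 6) in Endo and at most 0.11 elsewhere. The others led by Endo were Olfr720, Olfr240-ps1, Olfr279, Olfr90, Olfr371, Olfr547 and Olfr1444.

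CD140a led in Olfr543, Olfr545 and Olfr1371. Olfr543 stood at 0.80 and 5.07 FPKM in the CD140a controls and 7.25, 0.28, 2.60 and 2.05 with Trap, and its ranges in all the other populations overlapped this one. The block at chr7:102476579-102535684 that holds Olfr543, Olfr544, Olfr545 and Olfr547 lies near the Olfr558 block, but its members were led by CD140a, CD146 and Endo.

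Many members lay side by side. Joining members less than 150 kb apart gave 23 blocks, and 44 of the 57 members lay in 10 blocks of 2 or more. By gene structure, 82.5% had an annotated transcript of more than 1 exon, against 95.6% of the 228 receptor rows under the threshold, and the median longest transcript was 3041 bases against 3169.5.

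Some members correlated with the nearest gene outside the family, though no correlation with more distant genes was set beside these. Over the 30 libraries the Pearson correlation with that neighbour had a median of 0.39 and was above 0.5 for 18 of the 57 members. Olfr109 and H2-M2, a class I histocompatibility gene 9261 bases away, correlated at 0.96, and H2-M2 averaged 189.6 FPKM in mTEC and 105.3 in cTEC. Olfr270 and Nipsnap3a correlated at 0.91, Olfr920 and Vwa5a, 8962 bases away, at 0.86, and Olfr94 and Ubd, a ubiquitin-like gene 330 bases away, at 0.84. Olfr1394 and Btnl9, a butyrophilin-like gene 2731 bases away, correlated at 0.74. The members of the Olfr558 block correlated with their neighbour Trim68 at only 0.12 to 0.21. These values describe shared populations among the points, and whether reads of a neighbour entered a member's count was not tested.

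**Figure D3:**
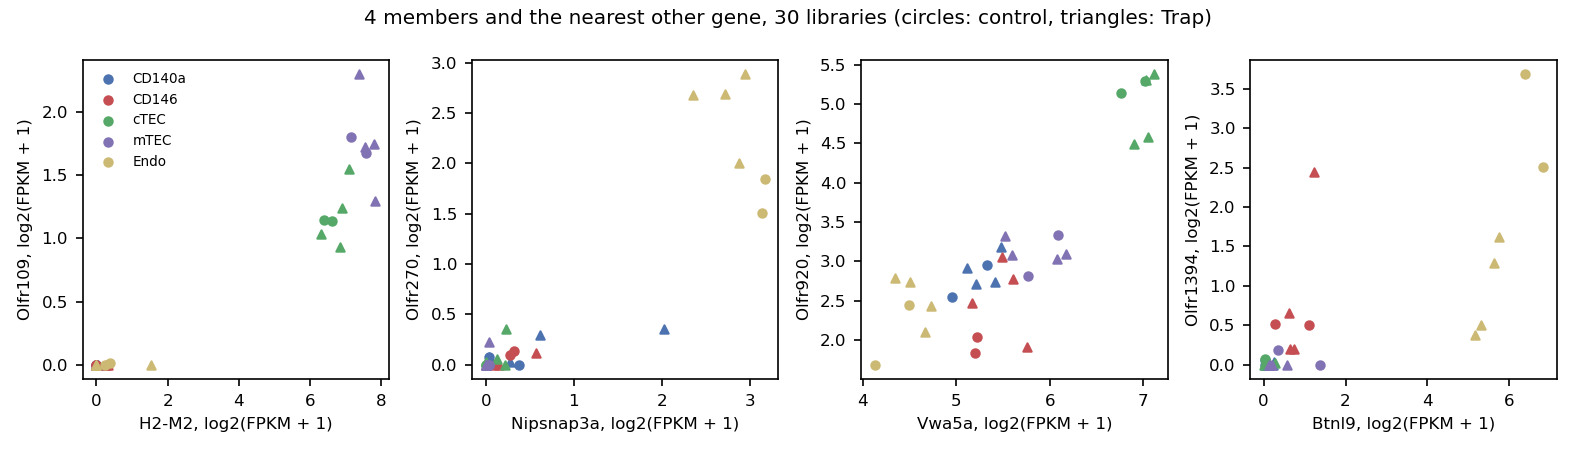
Level of 4 members (vertical axis) against the nearest gene outside the family (horizontal axis), both as log2(FPKM + 1), in 30 libraries coloured by population, controls as circles and Trap libraries as triangles. Olfr109 and H2-M2 rise together from mesenchyme to cTEC and mTEC (Pearson r 0.96), while for Olfr270 and Nipsnap3a (r 0.91) the Endo libraries stand apart from all others.

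Genes of olfactory signalling were mostly low. Of 18 olfactory signalling genes in the table, 15 averaged 1 FPKM or more in mTEC and 8 to 11 in the others. Gnal, the olfactory G protein subunit, averaged 1.75 to 3.56 FPKM in all 5 populations, and Adcy3, the olfactory cyclase, 5.47 in CD146 and 0.69 to 3.02 elsewhere. Cnga2, the channel subunit, averaged 2.69 in mTEC and at most 0.14 elsewhere, and Omp, the marker protein of mature olfactory neurons, 7.40 in mTEC and at most 0.22 elsewhere. Rtp1 and Rtp2, which carry receptors to the cell surface, averaged at most 0.79 and 0.062. Lhx2, a regulator of receptor choice in the nose, averaged at most 0.15, while Ebf1 averaged 95.1 in CD146, 62.0 in CD140a, 43.8 in Endo and 4.05 in mTEC. Of partners known beside Olfr78, Ffar2 and Ffar3, other receptors for short-chain fatty acids, averaged at most 0.35, and Ren1, renin, averaged 9.81 in CD140a, 8.80 in mTEC and 5.50 in CD146.

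The Trap contrast asked whether capture of VEGF changed these genes in any population. The members were chosen by means over both treatments. Of the 57 members, 50 passed the filter of 1 FPKM in 2 libraries and were tested with limma among 16425 genes. Olfr111, Olfr1318, Olfr1444, Olfr240-ps1, Olfr329-ps, Olfr545 and Olfr96 did not pass it. The filter was not blind to treatment for 5 members that reached 1 FPKM only in libraries of 1 group, namely Olfr547 in the 2 Endo controls, Olfr560 in the 4 CD146 Trap libraries, Olfr1371 in 2 CD140a Trap libraries, Olfr107 in 2 mTEC Trap libraries and Olfr1392 in 2 Endo Trap libraries. They are counted below with the other members tested. At a Benjamini-Hochberg adjusted p under 0.05, 3 of the 50 were called in Endo, where 1.74% of all genes were, and 1 in CD146, where 0.0183% were. None was called in CD140a (0.0% of all genes), cTEC (0.00609%) or mTEC (0.347%). By direction, Endo had 2 members lower (1.42% of all genes) and 1 higher (0.323%), and CD146 had 1 higher (0.00609%) and none lower (0.0122%). An unadjusted p under 0.05 was reached by 1 member in CD140a (3.71% of all genes), 3 in CD146 (5.0%), 1 in cTEC (2.28%) and 2 in mTEC (7.49%). All Trap values lay above both controls for 2 members in CD140a (5.14% of all genes), 1 in CD146 (5.8%), none in cTEC (5.66%) and none in mTEC (5.06%). They lay below both controls for 1 member in CD140a (6.79%), none in CD146 (6.84%), 4 in cTEC (7.87%) and 3 in mTEC (8.4%).

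**Figure D4:**
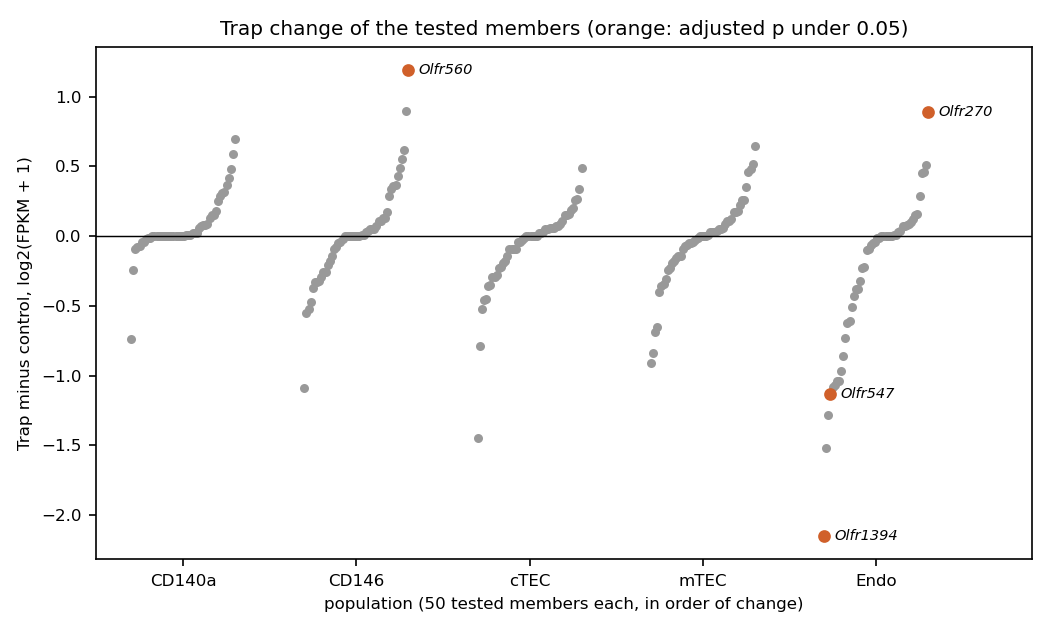
Trap minus control on the log2(FPKM + 1) scale for the 50 tested members (points, in order of size) in each population, with members at an adjusted p under 0.05 in orange. Olfr547 and Olfr1394 lie below 0 and Olfr270 above 0 in Endo, and Olfr560 lies above 0 in CD146.

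In endothelium Olfr547 and Olfr1394 fell with Trap and Olfr270 rose. Olfr547 stood at 2.12 and 1.15 FPKM in the controls and at 0.81, 0, 0.08 and 0 in the Trap libraries. The groups did not overlap, and the limma change was -1.13 (SE 0.19, log2(FPKM + 1), adjusted p = 0.00264). Olfr547 passed the filter through the control group alone, so its fall was partly set by that selection. With no filter its adjusted p was 0.000665 (limma), from the same libraries and so no separate support. Olfr1394 stood at 11.9 and 4.67 in the controls and at 2.07, 0.42, 1.44 and 0.30 with Trap, lower in all 4, a limma change of -2.15 (SE 0.41, adjusted p = 0.00752). Btnl9, its neighbour, fell as well, by 1.15 (adjusted p = 0.0273, limma), from 83.0 and 112.3 FPKM to 52.5, 38.3, 48.6 and 34.8. Trim21, the gene nearest to Olfr547 outside the family, fell by 1.22 (adjusted p = 0.00655, limma). Olfr270 stood at 2.60 and 1.84 in the controls and at 5.46, 6.39, 3.00 and 5.40 with Trap, higher in all 4, a limma change of 0.89 (SE 0.20, adjusted p = 0.0176). The call of Olfr270 was lost with a pseudocount of 0.1 (1.12, adjusted p = 0.354, limma) and after rescaling to TPM (1.14, adjusted p = 0.164). Its neighbour Nipsnap3a did not pass, with a limma change of -0.43 (adjusted p = 0.614).

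**Figure D5:**
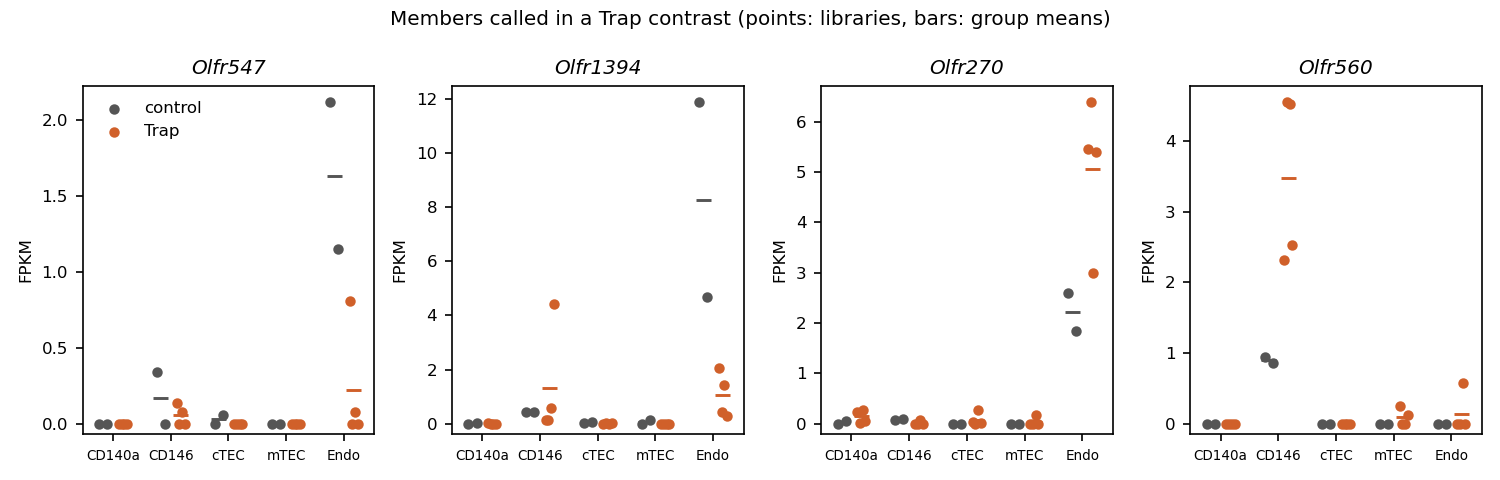
FPKM in each library (points, control in grey and Trap in orange, bars for group means) of the 4 members called in a Trap contrast, in all 5 populations. In Endo, Olfr547 lies at 1.15 and 2.12 in the controls and at 0 to 0.81 with Trap, and Olfr560 in CD146 lies at 0.86 and 0.95 against 2.31 to 4.55.

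The 3 calls in Endo rested on few libraries. Without control library 1, the calls of Olfr547 and Olfr1394 were lost (adjusted p = 0.0879 and 0.18 in limma), and without control library 2 that of Olfr270 (adjusted p = 0.132). Without Trap library 2, the one with the highest mTEC marker sum, all 3 held and Olfr558 (-1.42, adjusted p = 0.00823, limma) and Olfr1393 (-1.40, adjusted p = 0.034) joined them. Among the marker lists in Endo, the 8 endothelial markers summed to 1513.9 and 1544.1 FPKM in the controls and 1358.3 to 1450.4 with Trap, and the 8 fibroblast markers to 6.5 and 12.0 against 14.1 to 17.2, both without overlap. The fibroblast marker Pi16 rose (1.22, adjusted p = 0.0439, limma) and the thymocyte marker Lck fell (-1.44, adjusted p = 0.0403). The 6 erythroid markers stood at 10.6 and 91.9 FPKM in the controls and 72.7 to 131.4 with Trap, the 8 mTEC markers at 34.7 and 105.0 against 53.2 to 253.2, and the 9 mural markers, without overlap, at 233.4 and 234.3 against 185.4 to 222.0. The part of these cells in the calls was not tested.

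Over all 50 members tested in Endo, the called ones included, 12 had an unadjusted p under 0.05 (24.0%), where 14.9% of all genes did. In 11 of the 50 (22.0%) all Trap values lay below both controls, where 9.48% of all genes did, and in 2 (4.0%) all lay above, where 5.36% did. The members had a median change of -0.025 and all genes one of -0.017. Members that did not pass had changes of -1.52 for Olfr456 (SE 0.46, adjusted p = 0.0885, limma), -1.28 for Olfr458 (SE 0.46, adjusted p = 0.156) and -1.04 for Olfr1396 (SE 0.40, adjusted p = 0.199). The summed level of all 57 members was 116.8 and 104.0 FPKM in the Endo controls and 65.2, 94.8, 95.0 and 55.7 with Trap. Over all genes, those at 1 FPKM or more numbered 11163 and 11304 in the Endo controls. With Trap they numbered 11011, 10298, 11228 and 10572. The part of this difference in the lower values of the members was not tested.

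The Trap change in Endo was also compared with the average over the remaining 4 populations, a contrast that called 0.28% of all genes, 0.231% lower and 0.0487% higher. It called 2 members, both lower. Olfr547, which passed the filter through the Endo controls alone, differed by -1.09 (SE 0.21, adjusted p = 0.0208, limma) and Olfr1394 by -2.20 (SE 0.46, adjusted p = 0.0319), while the difference for Olfr270 did not pass (0.83, adjusted p = 0.0961). Without Trap library 2 of Endo the Olfr1394 difference no longer passed (-2.06, adjusted p = 0.0589), nor did it without Trap library 4 (-2.01, adjusted p = 0.0674) or with quantile normalization (-1.91, adjusted p = 0.0644), and without control library 1 neither did (adjusted p = 0.276 for Olfr1394 and 0.193 for Olfr547). The same limma contrast called no member for CD140a (0.0% of all genes), CD146 (0.00609%), cTEC (0.00609%) or mTEC (0.201%). An unadjusted p under 0.05 was reached there by 0 members in CD140a (3.53% of all genes), 2 in CD146 (3.91%), 1 in cTEC (1.91%) and 1 in mTEC (5.6%).

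In CD146 Olfr560 rose with Trap. It stood at 0.95 and 0.86 FPKM in the controls and at 2.31, 4.55, 4.52 and 2.53 with Trap, higher in all 4, a limma change of 1.19 (SE 0.20, adjusted p = 0.024). Olfr560 passed the filter through the CD146 Trap libraries alone, so its rise was partly set by that selection. With no filter its adjusted p was 0.00551 (limma), from the same libraries and so no separate support. Olfr78, which shares exon bases with it, had a change of 0.36 (SE 0.36, adjusted p = 1, limma). Leaving out either control, Trap library 2 or Trap library 3 ended the call (adjusted p = 0.0738, 0.152, 0.0593 and 0.0948), as did a pseudocount of 0.1 (1.77, adjusted p = 0.773, limma), rescaling to TPM (1.71, adjusted p = 0.553), the replicate block (1.16, adjusted p = 0.0686) and a fit of the 6 CD146 libraries alone. For its difference from the remaining populations the adjusted p was 0.237, so the change was not shown to differ between populations. Olfr558 had a change of -0.04 in CD146 (SE 0.34, adjusted p = 1, limma).

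The members of smallest p in the remaining populations did not pass. In cTEC Olfr1373 had a change of -1.45 (SE 0.55, adjusted p = 1, limma), at 24.9 and 13.1 FPKM in the controls and 12.0, 12.1, 1.73 and 4.2 with Trap, and Olfr284 one of -0.46 (SE 0.32). In mTEC Olfr102 had a change of -0.84 (SE 0.33, adjusted p = 0.488, limma), at 3.04 and 0.96 against 0.30, 1.21, 0.83 and 0.16, and Olfr107 one of 0.48 (SE 0.21, adjusted p = 0.592). In CD140a Olfr1371 had a change of 0.70 (SE 0.33, adjusted p = 1, limma) and Olfr1033 one of 0.48 (SE 0.32). None of the 15 tested olfactory signalling genes, 9 trafficking genes, 12 receptor choice genes, 9 display regulators or 4 fatty acid and renin partners passed in any population.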

How the data were processed

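The 30 libraries were sequenced from RNA. Per the labels' protocols, cDNA came from the Ovation V2 amplification kit and libraries from the KAPA LTP kit. The submitters' processing notes name bcl2fastq 2.17, STAR and DESeq2 and the builds GRCm38 and mm10. How fragments were counted, with which annotation and whether by strand, was not given in the sources used here. FPKM values, which the authors deposited as a single table rounded to 2 decimals, are the only measurement. Amplification can lose rare transcripts, and genes with near-identical copies may share or lose reads.

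From the table, 27 symbols that had become dates were restored by Ensembl identifier. Coordinates come from GENCODE M21 and start windows from RefSeq (GRCm38.p6), where 44 of 57 members had one. Tests used limma 3.58.1 in R 4.3.3 on log2(FPKM + 1) with a mean for each of 10 groups, a variance trend, two-sided tests and Benjamini-Hochberg adjustment over the 16425 genes at 1 FPKM or more in at least 2 libraries. Fold changes on this scale understate changes of low genes. The code was tested on simulated data. Described in full were the 3 members of highest mean in each population, each member called, and the 2 of smallest p where none was. Alternatives were a pseudocount of 0.1, no filter, rescaling to TPM, quantile normalization, a replicate block, each library left out and each population alone. The members, gene lists and the 150 kb gap were chosen with earlier results of these data known.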

Additional observations from a re-analysis of the deposited data

Results flagged for a closer look

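Among 16 described members, 39 sets of 4 Trap libraries were examined for a library far from the other 3, and chance flags about 1 in 20 such sets. In 3 sets 1 library stood apart. Olfr1394 in CD146 was listed at 4.44 FPKM in Trap library 4 and at 0.15 to 0.58 in the other 3, a gap that makes up 0.9 of the range. Olfr547 in Endo stood at 0.81 in Trap library 1 and at 0 to 0.08 in the other 3, a gap of 0.901 of the range. Olfr558 in Endo stood at 2.36 in Trap library 2, the Endo library with the highest mTEC marker sum, and at 0 to 0.33 in the other 3, a gap of 0.86 of the range.

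For 2 members the Trap change in Endo differed from its average over the remaining 4 populations by a direct test of the difference in limma. The difference was -2.2 for Olfr1394 and -1.09 for Olfr547 on the log2(FPKM + 1) scale. Olfr547 entered the test only through the 2 Endo controls, the group where it is high, so its difference was partly set by the filter.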

How the results depend on the processing

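The number of members was 57. It was 109 at a threshold of 0.25 FPKM, 39 at 1 FPKM, 43 with medians, and 176 after rescaling to TPM, where the same threshold is lower relative to the values. Leaving out a replicate number in all populations gave 55 to 62, and leaving out Trap library 2 of Endo, an alternative chosen after seeing the data, gave 57.

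The count of members called in CD146, 1 in the main analysis, was 0 with a pseudocount of 0.1, with TPM, with the replicate block and in the 6 CD146 libraries alone, and 0 to 1 when a library was left out. Without Trap library 3 the call was Olfr33 (1.33, adjusted p = 0.014) and not Olfr560. In Endo the 3 calls became 2 with a pseudocount of 0.1 and with TPM, where Olfr270 was lost, 0 in the 6 libraries alone and 1 to 5 when a library was left out. In mTEC 2 members, Olfr96 (-1.04, adjusted p = 0.000346) and Olfr111 (-0.98, adjusted p = 0.0221), were called without the filter, and 1 of them, Olfr96, in the difference against the other populations. The 2 differences called for Endo became 0 with a pseudocount of 0.1, 0 with TPM, 1 with quantile normalization, and 0 to 3 when a library was left out. The cause of these shifts was not tested. The change of Olfr284 in cTEC was -0.46, turned to 0.15 without control library 1 and ran from -1.07 to 0.15 over the libraries left out. In CD140a and cTEC no member was called under any alternative run.

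Deviations of same-numbered control and Trap libraries of a population correlated at -0.275 to 0.081. Those of same-numbered Trap libraries in 2 populations correlated at -0.024 to 0.102, most of them above 0. The labels do not say whether libraries of 1 number share animals. The contrasts between populations took all libraries as independent. With the replicate block, members called numbered 3 in Endo, 2 in its difference and 0 in CD146, where Olfr560 had a change of 1.16 (adjusted p = 0.0686). Of 44 alternatives for counts above 0, 27 stayed within 1.5 times the main value and 17 did not; counts of 0 say nothing about stability. Values for single members with no filter and with quantile normalization were added after seeing the data. Library number, and a fragment step known only in part, limit what low members can show.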
